A study of Mus musculus with 10 samples.

Results

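The 7 genes described here are Myc, Mycn, Mycl, Max, Mxd1, Mxd4 and Mga, the MYC family and partners of MAX. They were taken by name from the mm10 GENCODE annotation, which holds 21938 protein-coding genes on the main chromosomes. The study compared ways of finding chromatin contacts in PLAC-seq data, and it mapped H3K4me3 and open chromatin in the same cells. H3K4me3 is the trimethylated lysine 4 of histone H3, a mark of active and poised promoters, and was mapped by ChIP-seq in 2 replicates. ATAC-seq, which marks open chromatin by where a transposase inserts, was also run in 2 replicates. The cells were F123, an untreated mouse embryonic stem cell (mESC) line from an F1 cross of Mus musculus castaneus with S129/SvJae. They were a single line, grown with LIF on irradiated CF1 mouse embryonic fibroblasts and then taken through 1 passage without feeder cells.

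MYC proteins are basic helix-loop-helix leucine zipper factors that bind DNA as heterodimers with MAX. The MAX:MYC dimer recognises the E-box CACGTG and recruits histone acetyltransferases, and it drives ribosome production, metabolism and the cell cycle. MXD proteins compete for MAX and bring a co-repressor to the same sites, while MGA joins MAX to a polycomb complex that holds germline genes silent. In mESC grown with LIF, Myc and Mycn are known as regulators of proliferation and self-renewal.

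Each assay was deposited as a single peak list for both replicates, so no value below has a spread between replicates and none was tested. ATAC peaks were kept when found in both replicates, and the rule for the H3K4me3 list is not given in the sources used here. The H3K4me3 list held 33487 peaks of 206 to 14281 bp with a median width of 1135 bp. The ATAC list held 179109 peaks with a median width of 261 bp. Library depth is unknown here, because the peak lists carry no counts. A peak was counted at a start when it lay within 1 Kb of the 5′ end of the gene record. Promoters of 9 of 10 embryonic stem cell markers held an H3K4me3 peak, the widest being that of Sox2 at 8186 bp. The exception was Esrrb, an orphan nuclear receptor, whose principal transcript starts 60527 bp from the end of the gene record and held a peak of 2203 bp. Of 10 fibroblast markers, 6 held a promoter peak, none wider than 2658 bp. Over all protein-coding genes 65.2% held an H3K4me3 peak at the start, so 6 of 10 is near the general share. Col3a1, Postn, Lum and Fap held neither an H3K4me3 nor an ATAC peak. The part of remaining feeder cells in the values below was not tested.

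All 7 genes had an H3K4me3 peak at their start, against 65.2% of protein-coding genes. All 7 also had an ATAC peak there, against 71.0%. In each of them the start itself lay inside both peaks. The promoters then differed in breadth. The Mycn and Myc peaks were 7280 and 5916 bp wide, those of Mga, Mycl and Max lay between 3005 and 3351 bp, and those of Mxd4 and Mxd1 were 2314 and 1247 bp wide. The median of the 7 widths was 3316 bp, beside 2108 bp over the 12834 distinct promoter peaks of protein-coding genes. Peaks of at least 5 Kb were found at 2 of the 7 genes, Myc and Mycn, and at 2.88% of the protein-coding genes with a promoter peak. With 1 list for both replicates, the order of close neighbours such as Mga at 3351 bp and Mycl at 3316 bp has no estimate of error and is uncertain.

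**Figure D1:**
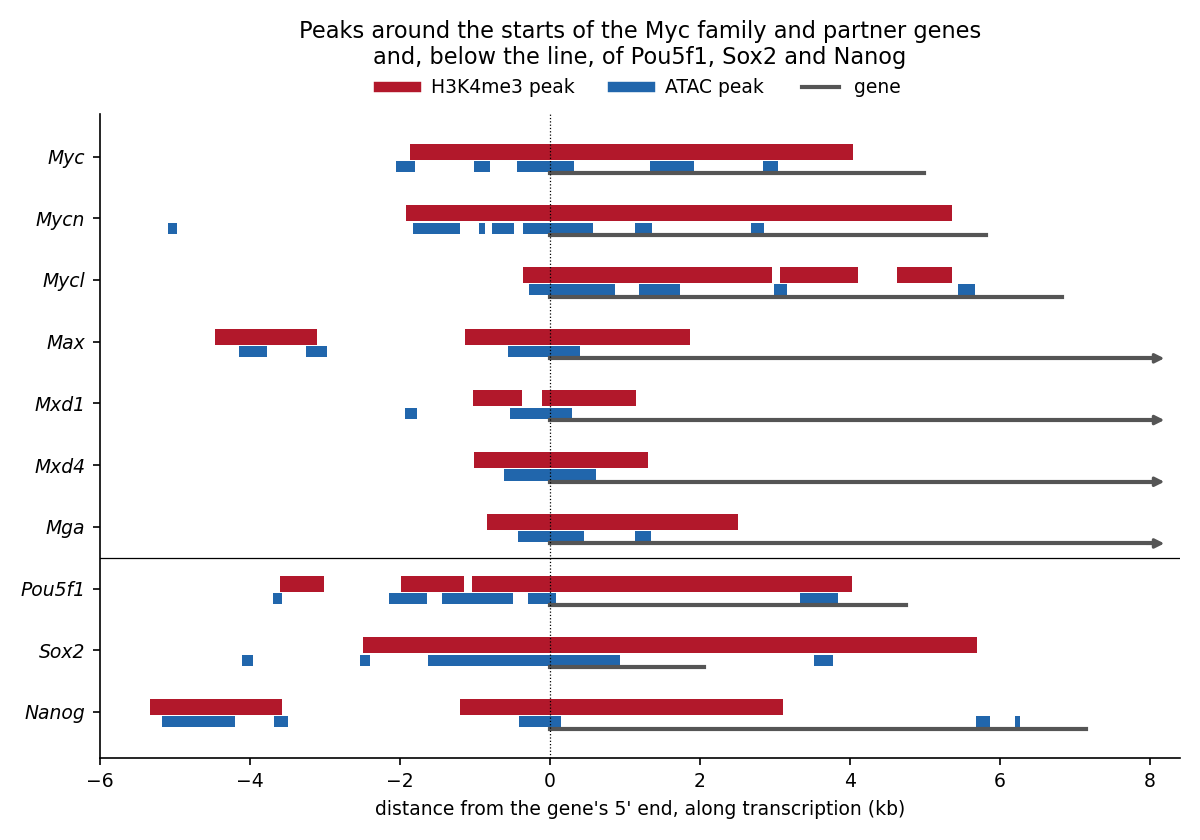
H3K4me3 peaks (red), ATAC peaks (blue) and gene extents (grey) from 6 Kb upstream to 8 Kb downstream of the 5′ end of each gene, along transcription, with arrows where a gene runs on. The red bars of Mycn and Myc span most of their short genes, while the promoter peaks of Max, Mxd1, Mxd4 and Mga end within 2515 bp of the start. Max and Mxd1 each have a further red bar upstream.

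The map of peaks around the starts shows that the marked domain lay mostly inside the transcribed side. In all 7 genes the peak reached farther downstream than upstream, as it did for 83.7% of the protein-coding genes whose start lay inside its peak. Likewise the summit, the position of strongest enrichment, was downstream of the start in all 7, against 85.9%. The summits stood 78 bp (Max) to 547 bp (Mga) past the start, and the median over protein-coding genes was 211 bp. Those of Mxd4 at 211 bp, Mxd1 at 214 bp and Mycn at 251 bp were near that median. Those of Myc at 424 bp, Mycl at 524 bp and Mga lay beyond the upper quartile of 339 bp. All these distances run from the 5′ end of the gene record. The principal start lies 531 bp downstream of that end in Myc and 292 bp in Mycl. The Myc summit is therefore upstream of its principal start, and the Mycl summit is closer to its own.

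Myc, the family member expressed in most dividing cells, lies at chr15:61985391-61990374 on the plus strand. Its promoter peak at chr15:61983525-61989440 began 1866 bp upstream of the start and ended 4049 bp downstream. It covered 81.3% of the gene. In order of width it stood at position 177 of the whole list and 149 among promoter peaks, and 98.8% of the promoter peaks were narrower. Its fold enrichment, the strength at the peak over the background of the peak caller, was 29.2, which is near the promoter median of 29.96. The −log10 q of the peak was 365, below the promoter median of 429. The Myc peak was among the widest but of ordinary height. All 6 annotated transcript starts of Myc lay inside this peak. It overlapped 5 ATAC peaks, and 99.2% of promoter peaks overlapped fewer. The ATAC peak over the start was 760 bp wide, and a second one of 590 bp began 1336 bp downstream of the start, over a further annotated start. The others were 206, 216 and 254 bp wide.

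Mycn, the paralogue best known from neural and embryonic progenitors, lies at chr12:12936093-12941914 on the minus strand. Its peak at chr12:12936556-12943835 was the widest of the 7 and covered 92.0% of the gene. Only 2.71% of the protein-coding genes with a promoter peak were covered to at least 90%, and Mycn was the 1 such gene of the 7. The peak stood at position 59 of the list and 45 among promoter peaks, with 99.6% of promoter peaks narrower. Unlike that of Myc it was also tall, at a fold enrichment of 40.9, above 77.5% of promoter peaks. It held 6 ATAC peaks, and 99.7% of promoter peaks held fewer. They ran from a 620 bp peak upstream through a 931 bp peak over the start to a 172 bp peak in the intron. Among the 342 promoter peaks of at least 5 Kb the median was 3 ATAC peaks, and 82.5% of these wide peaks held fewer than 5.

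The 250 bases upstream of the Mycn start (mm10 chr12:12941915-12942164, minus strand) are shown because they lie in this wide peak and hold a sequence that few promoters have. Capitals mark TTTGGCGC or its overlapping relative TTTCGCGC, the E2F consensus, and a GGGCGG box.
Mycn promoter: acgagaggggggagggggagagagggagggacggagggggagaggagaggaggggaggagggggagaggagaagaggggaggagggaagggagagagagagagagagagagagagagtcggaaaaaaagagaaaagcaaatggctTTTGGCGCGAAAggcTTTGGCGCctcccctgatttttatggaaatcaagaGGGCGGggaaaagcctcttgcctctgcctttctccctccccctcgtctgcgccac
On either strand TTTGGCGC occurred 2 times here and TTTCGCGC 1 time, on bases shared with the first TTTGGCGC, and they were found in 0.520% and 0.278% of 21930 promoters of the same length. These E2F words were chosen for the search after the sequence had been read. GGGCGG, the core of the SP1 site, was found in 39.0% of promoters. The window had 9 CpG dinucleotides, an observed over expected ratio of 0.521, near the median of 0.486.

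Mycl, the third MYC paralogue, had a promoter peak of 3316 bp with a fold enrichment of 37.3 at chr4:122995298-122998613, wider than 85.2% of promoter peaks. It began 354 bp upstream of the start and covered 43.3% of the gene. A further peak of 1031 bp with a fold of 8.70 and one of 728 bp with a fold of 3.62 followed within the gene. The first of these began 3073 bp from the start, over the annotated starts of a pair of processed transcripts. Joined across gaps under 1 Kb, the Mycl domain measured 5716 bp, and the Myc peak 5916 bp. The Mycl mark was in 3 pieces, where those of Myc and Mycn were single peaks. The ATAC peak at the start was 1150 bp wide, against a median of 883 bp for the widest ATAC peak at the start of the 15568 protein-coding genes that have one there. The 250 bases upstream of the 5′ end of Mycl held neither the E-box CACGTG nor a GGGCGG box, and no CCAAT either, at a GC content of 62.4%. The principal start of Mycl lies 292 bp downstream of that end, and the bases just before it were not searched.

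Max, the obligate partner of the MYC and MXD proteins and of MGA, lies at chr12:76937269-76962201 on the minus strand. Its promoter peak of 3005 bp had a fold of 29.3 and covered 7.50% of the gene. It held 1 ATAC peak, of 955 bp, over the start. A second H3K4me3 peak of 1356 bp with a fold of 5.26 lay 3109 bp upstream, between genes, with 2 ATAC peaks of 278 and 374 bp on it. Of 7 annotated starts, the 4 within 280 bp of the 5′ end were inside the promoter peak, and the 3 inner ones, starts of non-coding or decay transcripts, had no H3K4me3 peak within 1 Kb.

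Mxd1 and Mxd4 encode antagonists of MYC that pair with MAX and recruit SIN3 co-repressors. The Mxd1 peak was the narrowest of the 7 at 1247 bp, and only 14.0% of promoter peaks were narrower, but its fold of 35.1 was above 63.6% of them and its −log10 q of 753 was the highest of the 7. A second peak of 659 bp with a fold of 10.8 ended 365 bp upstream of the start. A single ATAC peak of 831 bp, from position -532 to +298 relative to the start, spanned the gap between both. Joined, they measured 2167 bp. The Mxd4 peak of 2314 bp had the highest fold of the 7 at 42.7, above 81.2% of promoter peaks. Its start ATAC peak, at 1234 bp, was the widest of the 7. A second Mxd4 ATAC peak of 449 bp covered the start of an internal processed transcript 12384 bp into the gene, and no H3K4me3 peak lay within 1 Kb of it.

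The promoters of Max, Mxd4 and Mxd1 are shown because the CACGTG that the MAX dimers recognise is present in the first and the second and absent from the last. Each is the 250 bases upstream of the start on the minus strand, in mm10 at chr12:76962202-76962451, chr5:34187721-34187970 and chr6:86669162-86669411. Capitals mark the E-box CACGTG, the NF-Y box CCAAT and the SP1 core GGGCGG on either strand.
Max promoter: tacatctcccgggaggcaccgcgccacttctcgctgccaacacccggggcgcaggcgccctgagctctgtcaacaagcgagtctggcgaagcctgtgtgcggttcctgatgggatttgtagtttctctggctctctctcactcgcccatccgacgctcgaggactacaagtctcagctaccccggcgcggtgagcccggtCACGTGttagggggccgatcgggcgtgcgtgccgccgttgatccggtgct
Mxd4 promoter: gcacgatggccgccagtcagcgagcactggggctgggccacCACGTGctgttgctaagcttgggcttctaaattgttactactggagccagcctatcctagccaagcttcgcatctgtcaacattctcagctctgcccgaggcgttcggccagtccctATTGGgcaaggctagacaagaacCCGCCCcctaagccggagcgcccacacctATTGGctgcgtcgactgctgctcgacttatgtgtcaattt
Mxd1 promoter: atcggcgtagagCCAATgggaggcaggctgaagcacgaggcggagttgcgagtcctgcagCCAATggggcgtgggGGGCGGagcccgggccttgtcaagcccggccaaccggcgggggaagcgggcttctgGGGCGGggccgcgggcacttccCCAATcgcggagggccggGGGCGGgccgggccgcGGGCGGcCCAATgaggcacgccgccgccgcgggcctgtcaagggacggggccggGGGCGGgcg
The CACGTG of Max began 50 bases and that of Mxd4 209 bases before the start. This E-box was found in 6.53% of 21930 promoters, and in 2 of the 6 members other than Myc, whose promoter sequence was not read. The looser CANNTG, which includes it, was found in 64.1% of promoters and in 4 of the 6. Mxd1 held 4 CCAAT and 5 GGGCGG boxes, which occurred at least 1 time in 36.0% and 39.0% of promoters. Its GC content of 77.6% exceeded that of 97.6% of promoters. The Max window had the highest CpG ratio of the 6 for its composition, with 26 CpG and an observed over expected value of 0.992. TATAAA was in none of the 6 and in 11.5% of all promoters. These matches describe letters in the reference and no binding was measured.

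Mga, a very long protein with both a T-box and a helix-loop-helix domain, lies at chr2:119897228-119969581 on the plus strand. Its promoter peak of 3351 bp was wider than 85.6% of promoter peaks, but its fold of 20.4 was the lowest of the 7 and above only 26.8% of them. The peak held 2 ATAC peaks, of 871 bp over the start and of 221 bp in the first intron. Mga has 12 annotated starts. The 4 within 77 bp of the 5′ end lay inside both kinds of peak, and the 8 inner ones, from 24448 to 63177 bp into the gene, had neither.

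**Figure D2:**
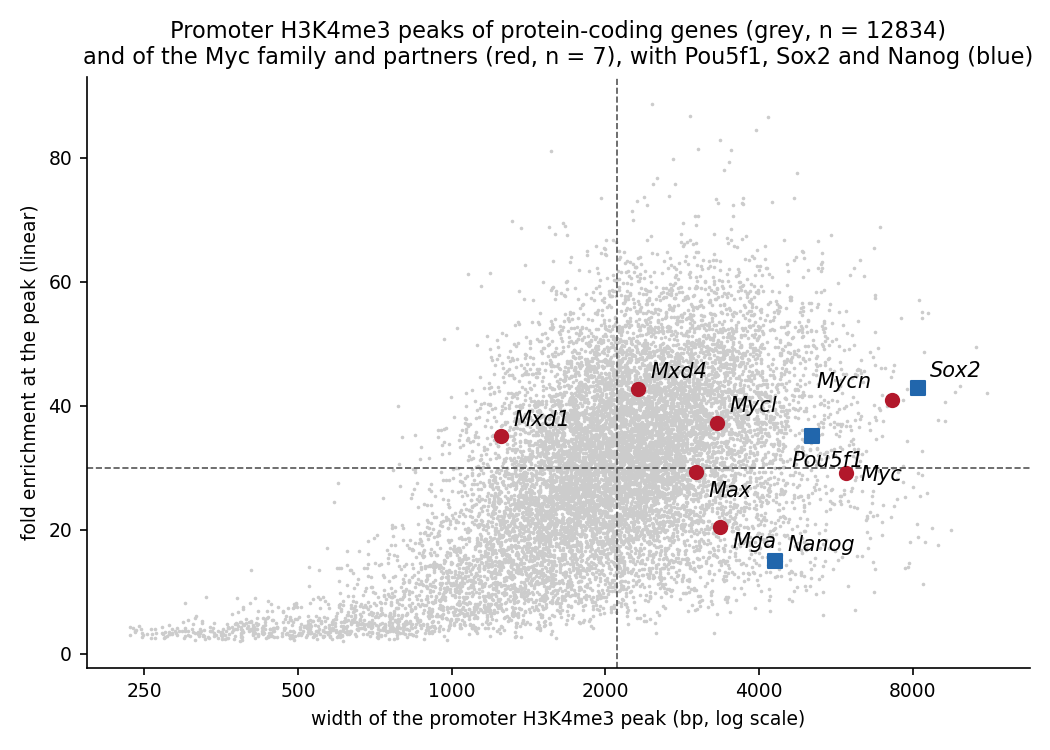
Width (log scale) and fold enrichment of 12834 promoter H3K4me3 peaks (grey), with the Myc family and partners as red circles, Pou5f1, Sox2 and Nanog as blue squares, and the medians as dashed lines. Mycn lies at 7280 bp with a fold of 40.9, Myc at 5916 bp with 29.2, and Mxd1 stands alone among the 7 on the narrow side of the median.

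Set against width, fold enrichment gave another order. The 4 genes above the median fold were Mxd4, Mycn, Mycl and Mxd1, and the genes below it were Max, Myc and Mga. The pluripotency genes Sox2, Pou5f1 and Nanog, shown for scale, had promoter peaks of 8186, 5078 and 4301 bp. Both Myc and Mycn lay between Sox2 and Pou5f1 in width. For Myc this depends on how peaks are split. Joined across gaps under 1 Kb, the Pou5f1 domain measured 6027 bp, wider than Myc, which stayed at 5916 bp. The genes next to Mycn in order of width were Ccn1 (7323 bp) and Cdkn1a (7310 bp) above and Igf2bp1 (7268 bp) and Id2 (7252 bp) below. Next to Myc were the shared promoter of Creb3 and Tln1 (5928 bp) and that of Zbtb8a (5921 bp) above, Sox4 at the same width (5916 bp) and the shared promoter of Smg5 and Tmem79 (5912 bp) below. Width is the measure of likeness here, over the promoter peaks of protein-coding genes.

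Across the 7 genes, 41 distinct transcript starts are annotated, of which 27 had an H3K4me3 peak within 1 Kb and 29 an ATAC peak. All 27 lay inside the peak. The share over all annotated transcript starts was not computed. At the 5′ ends of protein-coding genes the shares were 65.2% and 71.0%, so these counts do not set the members apart. Many of the starts lie close together in the same peak and are not separate observations. Mycn, Myc and Mycl had both kinds at each of their starts, 14 in all. No H3K4me3 peak lay in a gene body more than 1 Kb from every start. The 728 bp Mycl peak came near this limit, 947 bp from the start of a processed transcript. ATAC peaks did occur beyond it. Max had 4 and Mga 4 ATAC peaks in the gene over 1 Kb from any start, Mxd1 had 2, and Mycn and Mycl had 1 each. The longest of these were a 519 bp peak 65429 bp into Mga and a 393 bp peak 17250 bp into Max, both in introns and outside H3K4me3. For peaks in gene bodies the share over all protein-coding genes was not computed, so the counts are not read as a trait of the members. They were not adjusted for gene length, which ran from 4984 bp (Myc) to 72354 bp (Mga).

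**Figure D3:**
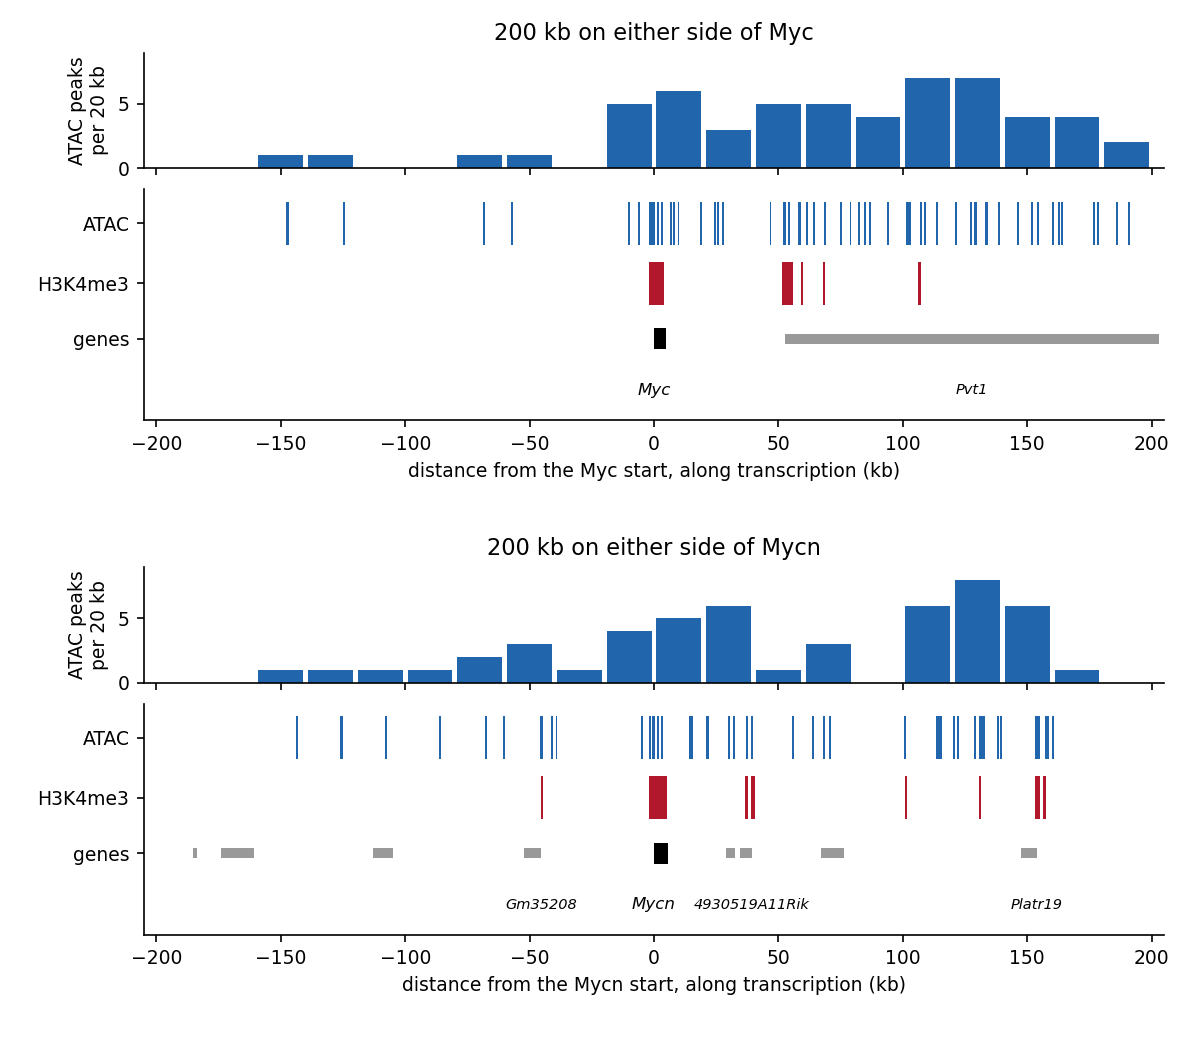
ATAC peaks per 20 Kb (bars) and the position of ATAC peaks, H3K4me3 peaks and long non-coding genes within 200 Kb of the starts of Myc (top) and Mycn (bottom), along transcription. Both sides differ, with 47 ATAC peaks downstream and 8 upstream of Myc, and 35 downstream and 14 upstream of Mycn.

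Neither Myc nor Mycn has another protein-coding start within 200 Kb, which held for 5.41% of protein-coding genes. The windows nonetheless held more ATAC peaks than those of most isolated genes, though not more than is usual for protein-coding genes at large. Within 200 Kb of the Myc start lay 5 H3K4me3 and 56 ATAC peaks, and around Mycn 8 and 50. The medians over protein-coding genes were 9 H3K4me3 and 42 ATAC peaks, with quartiles of 26 and 59 for ATAC. Of all these genes, 70.2% had fewer ATAC peaks than Myc and 61.3% fewer than Mycn. The Sox2 window, also without another protein-coding start, held 15 H3K4me3 and 55 ATAC peaks. Over the 809 isolated genes that have no such neighbour but do have a promoter peak, the medians were 2 and 19. Among these isolated genes, 97.0% had fewer ATAC peaks than Myc and 95.9% fewer than Mycn. Windows of neighbouring genes overlap, so these shares are descriptions.

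The Myc window was lopsided. Of the ATAC peaks away from the start, 8 lay upstream and 47 downstream, so that 85.5% were on 1 side. The median over 18184 genes with at least 20 ATAC peaks was 59.0%, and 99.0% of them were less one-sided. Those genes had a median of 7 other protein-coding starts in the window, whereas Myc has none. One-sidedness was not compared with isolated genes alone. Beyond 20 Kb upstream stood 4 single peaks, of which the widest, at 1092 bp, ended at position -146886. Downstream, the first 47.6 Kb between Myc and Pvt1 held 9 ATAC peaks, or 18.9 per 100 Kb. Pvt1, the long non-coding RNA gene next to Myc, held 37 in its first 147 Kb, or 25.1 per 100 Kb, and 50 over its whole length, or 14.7 per 100 Kb. The 1303 bp ATAC peak over the Pvt1 start overlaps both stretches and is counted in each. The main chromosomes together held 6.56 per 100 Kb. Off H3K4me3 were 47 of the 56 ATAC peaks, and over the whole list 21.1% lay on an H3K4me3 peak.

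Of the 5 H3K4me3 peaks in the Myc window, none lay farther upstream. The start of Pvt1, 52595 bp downstream, carried one of 4368 bp with a fold of 22.6 at position 776 of the list. The widest ATAC peak of the window, at 1303 bp, lay there. The other 3 peaks were in Pvt1 introns, 365, 465 and 1181 bp wide with folds of 3.44, 3.09 and 4.59. The second and the third held an ATAC peak each and the first none. Upstream of Myc, the 5′ end of Gm37947, a gene model that GENCODE marks as still to be tested, lay at position -2089 on the opposite strand, within 1 Kb of the Myc peak, so no separate H3K4me3 peak marks it.

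Around Mycn the H3K4me3 peaks were spread over small non-coding loci. The start of the long non-coding gene 4930519A11Rik, 39194 bp downstream, carried a peak of 1620 bp with a fold of 8.29, and a second of 946 bp with a fold of 13.1 lay beside it. Platr19, a lincRNA 153929 bp downstream, had the widest at 2151 bp with a fold of 10.4. Upstream, a peak of 543 bp with a fold of 3.68 marked Gm35208, whose start is at position -45403. The 3 remaining peaks, 587 to 1318 bp wide with folds of 2.52 to 4.74, lay between genes at 100890, 130734 and 156451 bp downstream, and each held at least 1 ATAC peak. No H3K4me3 peak was at the starts of Gm48187, Gm40271, Gm48209, Gm35298 or Gm48213, the other lincRNAs of the window. Open chromatin gathered between 100 and 160 Kb downstream, where 3 consecutive bins of 20 Kb held 6, 8 and 6 ATAC peaks. The first and the second bin downstream of the start held 5 and 6. Of the 50 ATAC peaks, 33 lay off H3K4me3.

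Among the ATAC peaks farther than 10 Kb from the start, 46 around Myc and 43 around Mycn, 300 bases around the middle of each peak were searched on both strands. This window runs past the ends of peaks narrower than 300 bp. The octamer ATGCAAAT, the POU element that OCT4 binds, was found in 1 peak of each window and in 3.55% of all ATAC peaks. The peak in the Myc window held 3 matches and that in the Mycn window 1. CACGTG was found in 3 of each and in 5.45% of all. The ESRRB word TCAAGGTCA was in none of either and in 0.851% of all. A pair of the Mycn peaks, between genes and 138090 and 128818 bp downstream, are shown on the plus strand of mm10 as the distal sites that hold the octamer and the E-box, in capitals. The first is chr12:12803675-12803974 and the second chr12:12812947-12813246. The second window runs past both ends of its peak. Neither lies on an H3K4me3 peak.
Mycn distal octamer peak: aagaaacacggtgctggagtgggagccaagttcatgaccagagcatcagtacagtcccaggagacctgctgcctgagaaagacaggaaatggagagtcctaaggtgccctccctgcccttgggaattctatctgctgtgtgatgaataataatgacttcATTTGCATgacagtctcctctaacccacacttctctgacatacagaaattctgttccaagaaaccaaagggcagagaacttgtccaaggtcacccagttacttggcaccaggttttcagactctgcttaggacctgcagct
Mycn distal E-box peak: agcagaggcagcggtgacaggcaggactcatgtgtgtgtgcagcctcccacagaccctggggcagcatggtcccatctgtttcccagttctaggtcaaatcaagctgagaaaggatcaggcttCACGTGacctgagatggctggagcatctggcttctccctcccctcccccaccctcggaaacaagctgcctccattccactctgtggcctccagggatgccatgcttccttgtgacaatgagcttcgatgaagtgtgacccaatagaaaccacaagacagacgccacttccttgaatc

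**Figure D4:**
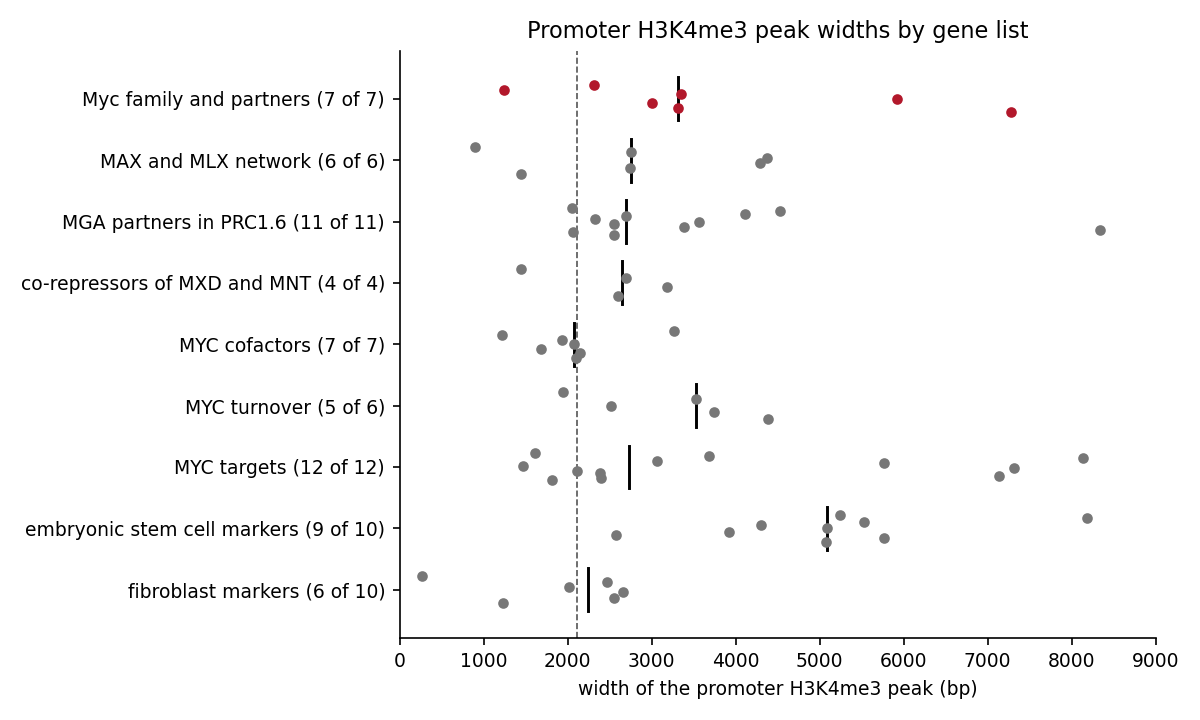
Width of the promoter H3K4me3 peak for each gene of 9 lists (points), the median of each list (black bar) and the median of all promoter peaks, 2108 bp (dashed). Brackets give the genes with a peak out of those listed. Stem cell markers have the largest median, 5092 bp, and MYC cofactors the smallest, 2070 bp.

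The rest of the network was marked almost throughout, as the plot of widths by list shows. Each of the 6 other MAX and MLX network genes (Mnt, Mxi1, Mxd3, Mlx, Mlxip and Mlxipl) had an H3K4me3 peak at its start. The widest was that of Mxi1, a further MXD-type antagonist, at 4372 bp, and the narrowest that of Mlxipl, the carbohydrate response factor, at 892 bp. This order rests on the 5′ end of the gene record, since the principal start of Mxi1, 18895 bp away, held a peak of 1614 bp and that of Mlxipl, 17028 bp away, one of 2781 bp. At principal starts the widest was Mnt at 4294 bp and the narrowest Mlx at 1442 bp. All 11 partners of MGA in the polycomb complex PRC1.6 were marked, from L3mbtl2 at 2052 bp to the heterochromatin protein gene Cbx3 at 8334 bp, whose peak also lies at the start of Hnrnpa2b1. All 4 co-repressors were marked, with Hdac2 the widest at 3176 bp and Sin3b the narrowest at 1441 bp. The 7 MYC cofactors had narrower peaks, from 1221 bp (Ruvbl2) to 3271 bp (Kat2a), but the highest median fold of these lists at 51.3. Of 6 genes for MYC turnover 5 were marked at the 5′ end, with Usp28 at 4390 bp the widest. The exception was Skp2, a ubiquitin ligase subunit, whose principal start 15060 bp away held a peak of 3792 bp. All 12 known MYC targets were marked, from the cell cycle gene Ccnd2 at 8138 bp to Ldha at 1470 bp, and 4 of them reached 5 Kb. These targets were not split by whether MYC activates or represses them. The principal start of Ldha, 4364 bp away, held a peak of 3134 bp, and the narrowest target at principal starts was Tert at 1606 bp. The share of protein-coding genes marked at the start was 65.2%, as given above, so a marked start is common among protein-coding genes at large.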

How the data were processed

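H3K4me3 ChIP-seq and ATAC-seq were each run on 2 replicates of F123 cells, and each was deposited as a single peak list for both. For H3K4me3 the authors ran the ENCODE pipeline for histone marks and left its parameters at default. Its aligner and threshold are not given in the sources used here. The deposited values of this list are peak positions, a fold enrichment (a ratio over the caller's background), −log10 p and −log10 q, a summit position and a display score. The −log10 p and the score were not used. The authors made the ATAC-seq list, which holds positions only, by mapping with Bowtie 1.1.2, filtering with SAMtools, calling peaks with MACS2 2.1.1.20160309 and intersecting them with bedtools 2.27.1 (tools per the submitters' processing notes), with read ends moved for the Tn5 insertion and pooled peaks kept when found in both replicates. ATAC peaks were called at a loose p-value before that step, so small ones are less certain, and a peak's width depends on the caller. PLAC-seq and input samples were not analysed here.

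Positions were compared with GENCODE M21 on mm10 by Python 3.11.15, pandas 2.3.3 and numpy 2.4.6. A peak was at a start within 1 Kb of the 5′ end of the gene record, and the widest was taken. Overlap meant at least 1 shared base. Counts of intervals were tested on simulated data and gave the same results as bedtools 2.31.1. Sequences came from the GRCm38 genome of RefSeq, and 6 of the 7 genes matched its promoter table by symbol. No test was run. The alternatives were other distances and starts, a stricter q, the widest 50% of the ATAC peaks, and joined peaks. The genes, lists and comparisons were chosen with earlier results of these data known. The genes named were the 7 members, the long non-coding genes around Myc and Mycn, unmarked, widest and narrowest genes of each list, and width neighbours, except 1 gene that is not reported here.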

Additional observations from a re-analysis of the deposited data

How the results depend on the processing

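The count of 7 members with an H3K4me3 peak and 7 with an ATAC peak at the start was the same under stricter or other settings. These were the start required inside the peak, the principal start, and the widest 50% of ATAC peaks. A distance of 2 Kb and any annotated start only widen the search, so they could not lower the count. A −log10 q of at least 5 for H3K4me3 could not either, since the lowest value among the 7 promoter peaks was 255 (Mga). Keeping the widest 50% of ATAC peaks, 261 bp or more, lowered the ATAC count within 200 Kb from 56 to 34 around Myc and from 50 to 29 around Mycn, since fewer peaks are then counted. Joining peaks under 500 bp apart gave 49 and 34. H3K4me3 peaks of the stricter q numbered 4 around Myc and 7 around Mycn. Of 22 alternatives for these counts 20 stayed within 1.5 times the main value, and these include the settings that could not lower the count. Peak widths moved for Mycl and Mxd1 when peaks under 1 Kb apart were joined, to 5716 and 2167 bp. The widths of Myc and Mycn stayed the same, but their positions fell in the joined list of 28939 peaks. Myc went from position 177 to 516 and Mycn from 59 to 232, with 98.2% and 99.2% of joined peaks narrower. Mycl rose from 2269 to 580, close to Myc, and Mxd1 from 15614 to 8380. Leaving out a replicate was not possible, since each list stands for both. No paired analysis was possible because the deposited lists carry no replicate. Depth is unknown, so a missing peak is a peak not called, not an absent mark.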
